A study of Mus musculus with 5 samples.

Results

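Homeostatic CXC chemokines and their receptors were followed in 5 single-cell RNA libraries of the mouse lung. The genes were the ligands Cxcl12, Cxcl13, Cxcl14 and Cxcl16 and the receptors Cxcr4, Ackr3, Cxcr5 and Cxcr6, which were matched by exact symbol and make up 8 of the 42454 features in the count tables. Counts were found for 7 of the 8 in the filtered cells. The set was selected on its function and chosen with the CPM levels by cell class and the ratios between these same libraries in view, so all values below are descriptions and none was tested.

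All mice were C57BL/6J. Newborn pups spent 3 days in air or in hyperoxia of over 95% O2, with dams that were exchanged daily between exposed and air litters. The pups then stayed in air until their lungs were taken at pnd7 or at pnd60. Unsorted lung cells gave 4 libraries, namely air at pnd7, hyperoxia at pnd7, air at pnd60 and hyperoxia at pnd60. The number of mice behind each is not given in the sources used here. The other library held cells from the pooled lungs of 3 hyperoxia-exposed mice at pnd7, sorted for C12FDG, a fluorescent substrate of senescence-associated β-galactosidase. No sorted cells of air-exposed mice were analysed here, so the sorted library was set against unsorted hyperoxia cells of the same age.

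Each condition had 1 library. There was therefore no spread between replicates, no test across mice and no p-value, and every interval is a 95% interval that covers counting error only. Batches of library preparation cannot be told apart from the groups. According to the paper, the unsorted data came from an earlier publication of its authors, and the sorted cells were sequenced for the paper. The sort therefore cannot be told apart from the dataset. A difference is called "beyond counting error" where its interval does not reach 0 on the log2 scale, which says that 2 libraries differed and not that 2 conditions did.

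Chemokines are small secreted proteins that guide cells along their gradients, and the homeostatic ones are made in resting tissue as well as in injury. Cxcl12 binds the signalling receptor Cxcr4, which holds and recruits leukocytes and vascular cells. It also binds Ackr3, an atypical receptor that takes up Cxcl12 and so shapes its gradient. Cxcl13 draws Cxcr5-bearing B cells and follicular helper T cells into lymphoid follicles. Cxcl16 is a membrane-bound ligand for Cxcr6 on tissue-resident T cells and innate lymphoid cells, while the receptor of Cxcl14, a chemokine of stromal and epithelial cells, is not settled.

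After cells with over 700 and under 8000 genes and under 5% mitochondrial counts were kept, the libraries held 493 to 4756 cells and 7880365 to 16648251 counts of unique molecular identifiers (UMIs, one per captured mRNA molecule). The median count per cell was 3915 in air and 7119.5 in hyperoxia at pnd7, 15529 in the sorted library, and 2168 and 2315.5 in air and hyperoxia at pnd60. Hemoglobin genes took 0.0013% to 3.38% of the counts, and any pair of libraries shared at most 4 cell barcodes. Clusters were built without the 8 genes and named from marker lists, so each class name below means "like" that cell type. Type II-like epithelial cells, which mark lung tissue, were present in each library, from 8 cells in the sorted library to 514 in hyperoxia at pnd60. The sorted library was mostly alveolar macrophage-like (410 of 493 cells) and interstitial macrophage-like (50 cells). It held 0 B cell-like and 0 T cell-like cells, each of which allows a share of up to 0.609%, taken as 3 cells of 493.

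Cxcl12, Cxcr4 and Ackr3 carry most of what follows, and the DNA before their start sites is shown because the treatment was oxygen and hypoxia-inducible factors are known to act on Cxcl12 and Cxcr4. The sequences are the 250 bases before the RefSeq start in GRCm38.p6, printed on the gene's strand. Capitals mark the letters ACGTG or GCGTG, the core of the hypoxia response element, searched on both strands; ACGTG also lies within the E-box CACGTG.
Cxcl12 (chr6:117168285-117168534, plus strand): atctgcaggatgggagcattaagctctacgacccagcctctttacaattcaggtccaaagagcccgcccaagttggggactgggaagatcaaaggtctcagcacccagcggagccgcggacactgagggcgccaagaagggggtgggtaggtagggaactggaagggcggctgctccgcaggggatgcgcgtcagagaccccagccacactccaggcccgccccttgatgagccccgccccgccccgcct
Cxcr4 (chr1:128592300-128592549, minus strand): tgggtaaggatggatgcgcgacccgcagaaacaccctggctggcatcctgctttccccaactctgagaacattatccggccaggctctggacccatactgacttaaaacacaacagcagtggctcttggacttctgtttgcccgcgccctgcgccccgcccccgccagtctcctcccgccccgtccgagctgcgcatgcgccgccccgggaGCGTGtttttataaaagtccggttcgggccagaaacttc
Ackr3 (chr1:90203730-90203979, plus strand): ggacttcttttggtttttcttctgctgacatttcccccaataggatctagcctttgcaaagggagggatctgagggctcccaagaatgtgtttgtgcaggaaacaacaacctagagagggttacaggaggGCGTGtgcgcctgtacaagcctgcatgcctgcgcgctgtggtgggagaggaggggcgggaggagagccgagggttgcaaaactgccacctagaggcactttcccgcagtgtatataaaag
The Cxcr4 window held 1 GCGTG, 39 bases before the start. The Ackr3 window held 1 GCGTG, 120 bases before the start, and the Cxcl12 window held neither motif. One or both motifs were present in 38.6% of 32851 mouse promoters of the same length, ACGTG in 16.6% and GCGTG in 28.2%, so a match in this window is common and is not evidence of a site.

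Over whole libraries, hyperoxia and air differed little for most of these genes at either age, while age and the sort went with larger differences. Levels are given in CPM, the usual scaling of a count to the total of all counts, here over the filtered cells of a library. A whole-library level mixes how many cells of a class were captured with the level in those cells, which the class values further on separate. The comparisons share libraries, since hyperoxia at pnd7 enters 3 of them, so they are given side by side and not as repeats of each other.

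At pnd7, 0 of the 7 genes with at least 100 counts over both libraries were 2-fold higher in hyperoxia and 0 were 2-fold lower, against 0.183% and 0.802% of 12591 genes. Cxcl12 was closest to 2-fold higher, at 74.2 CPM in air (1235 counts) and 129.6 in hyperoxia (1760 counts), a log2 ratio of 0.81 (0.70 to 0.91). Cxcr5 was closest to 2-fold lower, at 4.26 and 2.14 CPM, and its log2 ratio of -0.997 (-1.67 to -0.36) rested on 71 and 29 counts and lay just inside the line. It was 0.06 with cells thinned to 1000 UMIs. Cxcl12, Cxcr4 and Ackr3 were higher in hyperoxia beyond counting error, and Cxcl14 and Cxcr5 lower, 3 and 2 of 7 genes against 16.3% and 18.4% of all genes. The median log2 ratio was 0.32 over the 7 genes and -0.02 over all genes. The class mix differed between these 2 libraries. Of 2308 air cells, 436 were in unnamed cluster 6, 185 in red blood cell-like cluster 21 and 194 in type I-like cluster 20. A further 109 were in club or secretory-like cluster 28. Of 1246 hyperoxia cells, these clusters held 73, 6, 8 and 2. The part of this mix in the ratios was not tested.

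At pnd60, 1 of 7 genes was 2-fold higher in hyperoxia and 0 were 2-fold lower, against 0.271% and 0.248% of 12928 genes. The 1 was Cxcl13, at 1.42 CPM in air (21 counts) and 8.41 in hyperoxia (139 counts), a log2 ratio of 2.56 (1.89 to 3.30). The next in size was Cxcr4, lower in hyperoxia at 118.3 CPM than in air at 176.7 CPM, with a log2 ratio of -0.58 (-0.66 to -0.49). Cxcl12 and Cxcr6 were also higher in hyperoxia beyond counting error, and Cxcl14 and Cxcr5 lower, which makes 3 higher and 3 lower of 7 genes against 11.0% and 8.48% of all genes. The interval of Ackr3 spanned 0, at -0.17 (-0.39 to 0.04). The median over the 7 genes was -0.17, beside 0.01 over all genes.

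**Figure D1:**
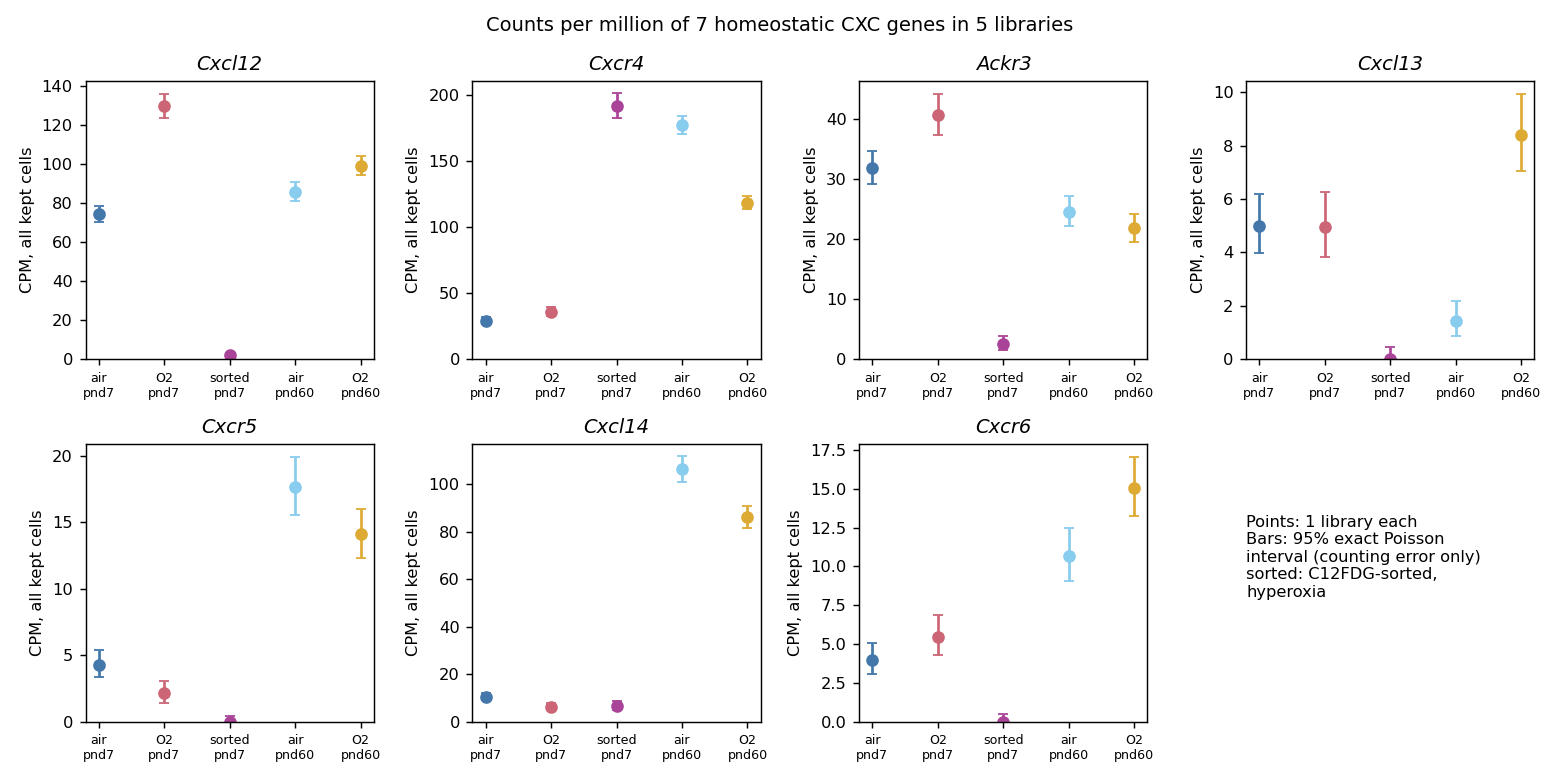
Levels of the 7 genes with counts in the 5 libraries, in CPM on linear axes that start at 0 and differ between panels. Each point is 1 library and each bar its 95% counting interval. Cxcl12 and Ackr3 lie at 2.03 and 2.54 CPM in the C12FDG-sorted library, where Cxcr4 is at 191.6 CPM, and Cxcl14 lies at 86.1 CPM or above only at pnd60.

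**Figure D2:**
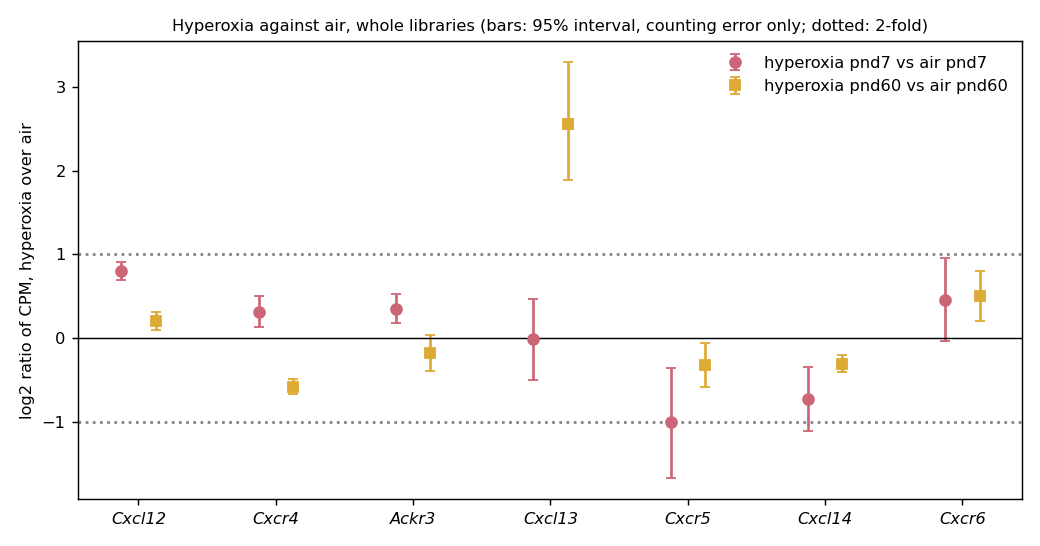
Log2 ratio of hyperoxia to air at pnd7 and at pnd60 for each gene with counts, with its 95% counting interval. Cxcr4 sits above 0 at pnd7 (0.32) and below it at pnd60 (-0.58), and Cxcl13 reaches 2.56 at pnd60.

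Cxcl12 (chr6:117168535-117181368) came mainly from vascular and stromal cells. Over whole libraries it was at 74.2 CPM in air and 129.6 in hyperoxia at pnd7, 2.03 in the sorted library, and 85.9 and 99.1 at pnd60. Arterial endothelial-like cells had the highest level in each unsorted library, at 9587 CPM in air (8 cells) and 8161 in hyperoxia (12 cells) at pnd7, and 2245 (44 cells) and 2203 (54 cells) at pnd60. They held 35.5%, 32.3%, 18.9% and 23.2% of the Cxcl12 counts of these libraries. General capillary-like cells, the endothelium that lines most alveolar capillaries, held 32.2%, 42.6%, 47.9% and 49.5%, at a lower level per cell of 376 and 619 CPM at pnd7 and 582 and 670 CPM at pnd60. Adventitial fibroblast-like cells were at 344 to 492 CPM, pericyte-like cells at 181 to 442 CPM, and alveolar fibroblast-like cells at 43.0 to 71.1 CPM.

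Aerocyte-like cells in hyperoxia at pnd7 stood at 386.8 CPM, but 67 of their 68 counts were in 1 cell, and the level without it was 6.48 CPM.

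Type II-like and B cell-like cells were low in the order, but some blood-like clusters were not. In air at pnd7, unnamed cluster 6, whose leading genes include Itga2b and hemoglobin genes, was at 73.6 CPM (88 counts). Red blood cell-like cluster 21 was at 44.6 CPM (15 counts). Its leading genes include Ptx3 and Mmrn1 beside hemoglobin genes, and these 2 also lead lymphatic endothelial-like cluster 50. At pnd60, monocyte-like cluster 11 was at 54.5 CPM in air (22 counts) and T cell-like cluster 31 at 61.2 in hyperoxia (11 counts). Type II-like cells held 0 counts in both unsorted libraries at pnd7 and stood at 3.96 and 4.79 CPM at pnd60. B cell-like cells, which are not known to make Cxcl12, were at 0, 2.58, 17.9 and 12.7 CPM, and serve here as the class that should lack it. With each cell thinned to 1000 UMIs, 34.9% of general capillary-like cells in air and 38.8% in hyperoxia at pnd60 had a Cxcl12 UMI, against 1.76% and 1.35% of B cell-like cells. The unthinned shares were 44.9% and 49.6% against 2.88% and 1.98%, with median counts per cell of 1603 and 1735 against 1595 and 1686.

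At pnd7, 8 classes or unnamed clusters were compared for Cxcl12. In hyperoxia 4 were higher and 1 lower beyond counting error, against 6.84% and 7.35% of all pairs of a gene and a class. The higher ones did not reflect most cells of their classes. In aerocyte-like cells 67 counts were in 1 cell and 1 in the other 26. In T cell-like cells 29 counts were in 1 cell and 7 in the other 92. That T cell-like cell carried arterial markers at 1436 CPM and general capillary markers at 2813 CPM, against 33.8 and 33.8 in the other 92. The aerocyte-like cell with 67 counts carried them at 2824 and 2686 CPM, against 1212 and 986 in the other 26. In unnamed cluster 34 the 38 counts lay in 4 of 87 cells. Unnamed cluster 6 was the lowest, at 73.6 CPM in air (88 counts) and 14.5 in hyperoxia (3 counts). Within the general capillary-like class the log2 ratio was 0.72 (0.54 to 0.90), beside a median of -0.07 over all genes in that class. This ratio rested on few cells. The 141 hyperoxia cells held 750 counts, and 48.7% of these were in 3 cells with 168, 148 and 49 counts. In air, 121 cells held 398 counts, and the highest 3 had 42, 38 and 37. Without the highest cell of each library the ratio was 0.54 (0.35 to 0.73), and with cells thinned to 1000 UMIs it was 0.14. The share of thinned cells with a UMI was 19.2% in air (23 of 120) and 19.1% in hyperoxia (27 of 141). The 3 highest cells carried arterial markers at 5290 CPM in air and 6965 in hyperoxia, against 1777 and 1515 in the other general capillary-like cells and 7818 and 7083 in the arterial-like class. The class at pnd7 thus held cells with a high level of arterial markers, and their part in the ratio was not tested.

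When the libraries were integrated before clustering, as the study did, the arterial-like class at pnd7 grew to 28 cells in air and 29 in hyperoxia, of which 18 and 17 had been general capillary-like. These arterial-like cells held 58.5% and 60.2% of the Cxcl12 counts, at 3771 and 5829 CPM. The general capillary-like cells were left with 11.1% and 12.95%, at 189 and 292 CPM. The shares at pnd60 also depended on the clustering. After integration, arterial-like cells held 34.3% of the Cxcl12 counts in air and 36.5% in hyperoxia at pnd60. General capillary-like cells held 34.9% and 38.3%. Of 150 arterial-like cells in each library, 105 and 96 had been general capillary-like. Cxcl12 in arterial-like cells was above that in general capillary-like cells under both ways of clustering and at both ages.

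**Figure D3:**
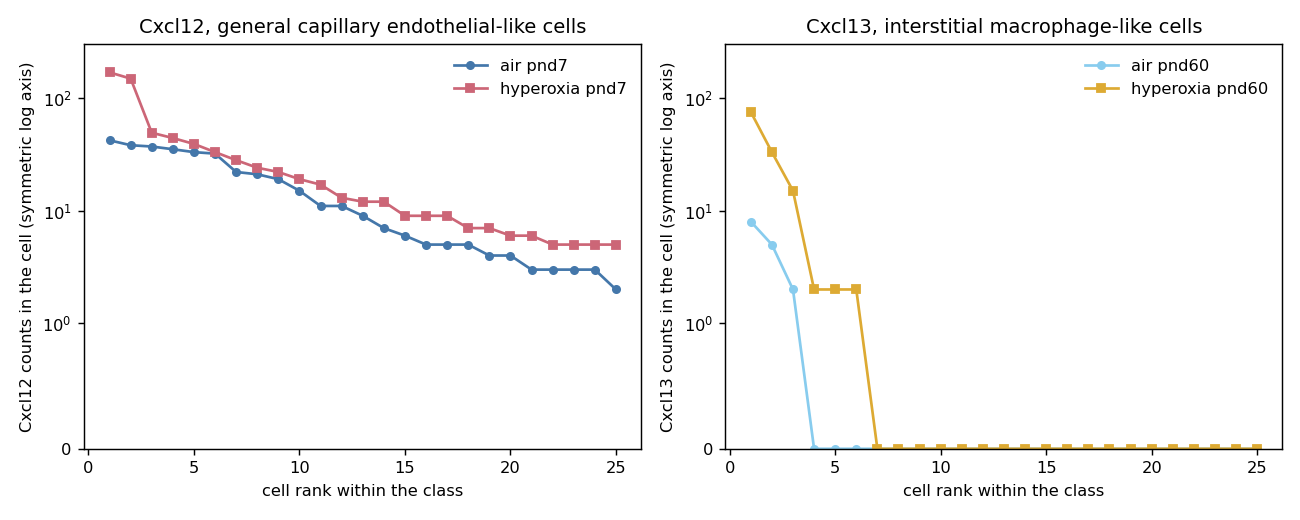
Counts per cell on a symmetric log axis, for the 25 cells with the most counts in rank order, for Cxcl12 in general capillary-like cells at pnd7 and for Cxcl13 in interstitial macrophage-like cells at pnd60. A pair of hyperoxia cells with 168 and 148 Cxcl12 counts stand above the rest at pnd7, and 1 hyperoxia cell holds 75 of the 129 Cxcl13 counts at pnd60.

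At pnd60, Cxcl12 in arterial-like cells was 239 counts in air and 380 in hyperoxia, a log2 ratio of -0.03 (-0.27 to 0.21). In general capillary-like cells, where the class's counts were spread widely (50% of them lay in 55 and 57 cells), it was 0.20 (0.05 to 0.36). After integration, arterial-like cells were at 1423 (1293 to 1564) CPM in air and 1639 (1510 to 1776) in hyperoxia. General capillary-like cells were then at 483 (439 to 530) and 565 (522 to 611) CPM. The intervals of air and hyperoxia overlapped in both classes. Pericyte-like cells, the contractile cells wrapped around capillaries, stood at 214 CPM in air (23 counts in 32 cells) and 442 in hyperoxia (89 counts in 37 cells), a log2 ratio of 1.05 (0.37 to 1.78). This ratio was 0.44 after integration.

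Ackr3 (chr1:90203980-90215724), the receptor that removes Cxcl12, was highest at the other end of the vascular tree. Over whole libraries it was at 31.9 CPM in air and 40.7 in hyperoxia at pnd7, 2.54 in the sorted library, and 24.6 and 21.8 at pnd60. Venous endothelial-like cells at pnd60 held 196 of 362 counts in air, at 1254 CPM in 54 cells, and 139 of 360 in hyperoxia, at 950 CPM in 45 cells, a log2 ratio of -0.40 (-0.72 to -0.08). In the same cells Cxcl12 was at 147 and 61.5 CPM, and Cxcr4 had 0 counts in air and 3 in hyperoxia. Arterial-like cells at pnd60 were the reverse, with Ackr3 at 18.8 and 34.8 CPM, Cxcl12 at 2245 and 2203 CPM and Cxcr4 at 451 and 556 CPM. General capillary-like cells lay between, with Ackr3 at 121 and 130 CPM. After thinning, 61.5% of venous-like cells in air and 55.6% in hyperoxia had an Ackr3 UMI, against 0.160% and 0.0797% of B cell-like cells, while the unthinned shares were 81.5% and 82.2% against 0.160% and 0.159%. Median counts per cell were 2551 and 2134 in venous-like cells.

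No cluster at pnd7 was venous-like without integration, and general capillary-like cells held 58.0% of the Ackr3 counts in air and 69.7% in hyperoxia, at 291 and 318 CPM. After integration, 14 air and 16 hyperoxia cells at pnd7, all from the former general capillary-like class, were venous-like. They had Ackr3 at 890 and 936 CPM, 31.5% and 38.0% of the counts, with 1 and 0 counts of Cxcl12 and 3 and 1 counts of Cxcr4. The order arterial-like, capillary-like, venous-like then ran from highest to lowest for Cxcl12 and from lowest to highest for Ackr3 in all 4 unsorted libraries.

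How Ackr3 in capillary-like cells compared between the ages depended on this regrouping. Without integration the log2 ratio of pnd60 to pnd7 was -1.27 (-1.58 to -0.96) in air and -1.29 (-1.57 to -1.02) in hyperoxia. With integration it was -0.15 and -0.19, from 149 and 156 CPM at pnd7 and 134 and 137 CPM at pnd60. Aerocyte-like cells, the thin capillary cells of gas exchange, held Ackr3 at 122 and 108 CPM at pnd7 (15 and 19 counts) and at 13.2 and 2.89 CPM at pnd60 (5 counts and 1 count). Myofibroblast-like cells, which are abundant while alveoli form, had Ackr3 at 37.3 and 40.4 CPM at pnd7 and 0 counts at pnd60 in 23 cells of either library. That allowed up to 44.8 CPM in air and 54.4 in hyperoxia, so a difference was not detectable at this depth. Between hyperoxia and air, no class with enough counts at pnd7 had an Ackr3 difference beyond counting error (over all pairs of a gene and a class, 6.84% were higher and 7.35% lower), and at pnd60 the venous-like cells were lower and adventitial fibroblast-like cells higher in hyperoxia. The latter stood at 22.0 and 68.9 CPM on 5 and 18 counts, 8 of the 18 in 1 cell.

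**Figure D4:**
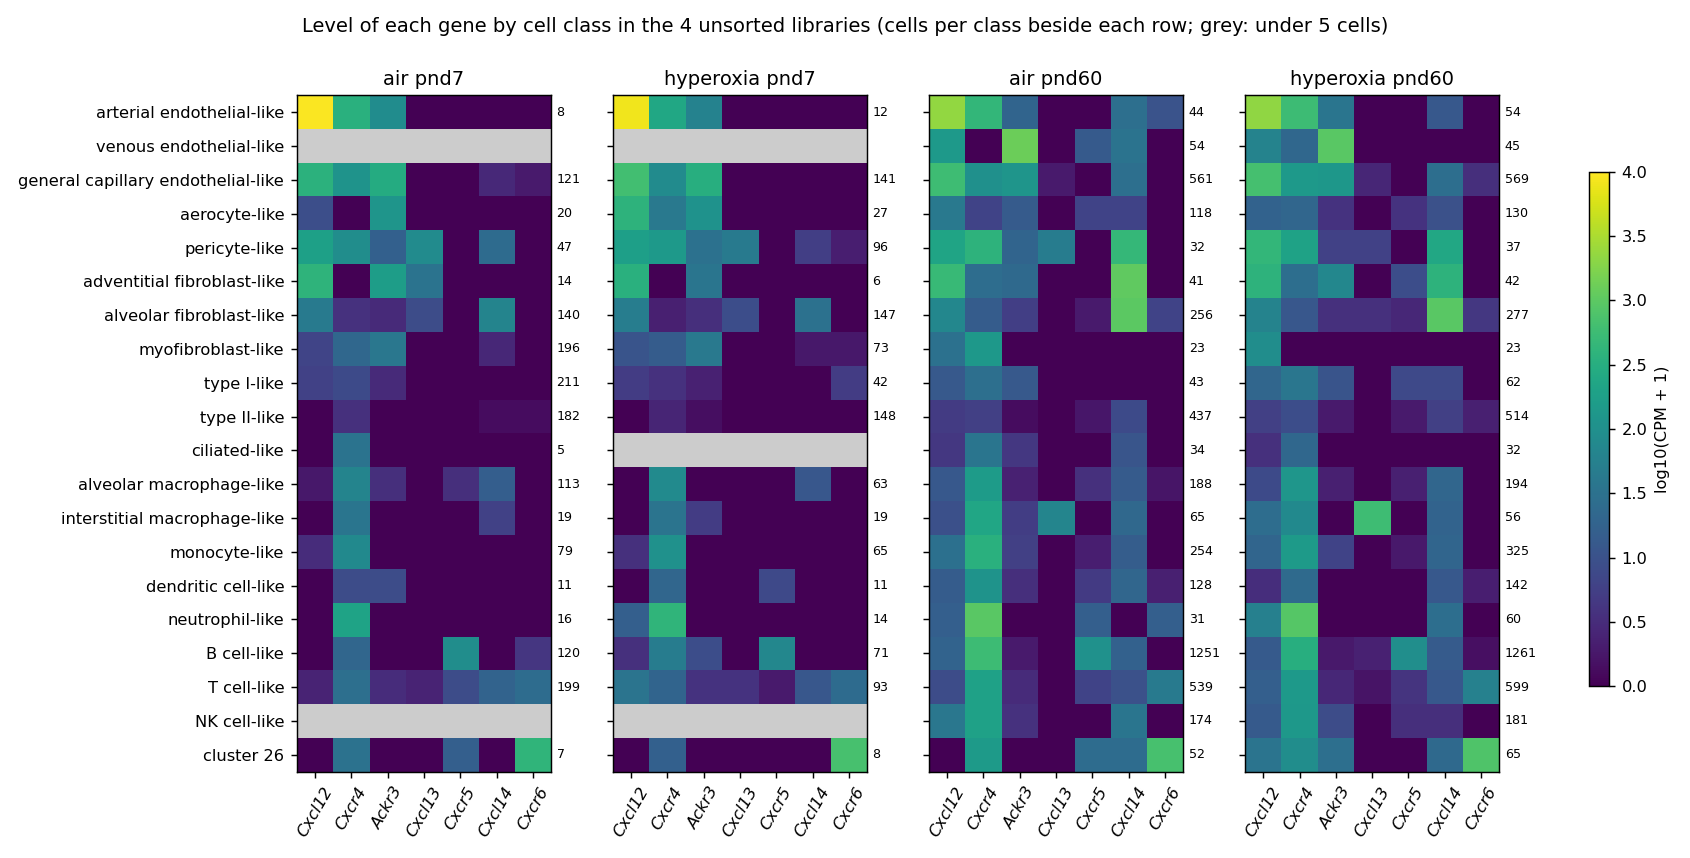
Levels of the 7 genes with counts by cell class in the 4 unsorted libraries, as log10(CPM + 1) in colour, with the number of cells beside each row and grey where a library had under 5 cells. Cxcl12 is highest in arterial-like cells, Ackr3 in venous-like cells at pnd60, Cxcr5 in B cell-like cells and Cxcl14 in fibroblast-like cells at pnd60.

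Cxcr4 (chr1:128588199-128592299) had levels that went with age, with hyperoxia at pnd60 and with the sort. It was at 28.8 CPM in air and 35.9 in hyperoxia at pnd7, 191.6 in the sorted library, and 176.7 and 118.3 at pnd60. Counts were 480, 487, 1510, 2606 and 1956. The log2 ratio of pnd60 to pnd7 was 2.62 in air and 1.72 in hyperoxia.

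The classes that held Cxcr4 were not the same at the 2 ages. At pnd7, general capillary-like cells held 24.4% of the counts in air and pericyte-like cells 24.6% in hyperoxia. After integration, general capillary-like cells in air at pnd7 held 11.0% and arterial-like cells 16.5%. At pnd60, B cell-like cells held 46.3% and 38.2%. B cell-like cells were 5.20% and 5.70% of cells at pnd7 and 28.5% and 26.5% at pnd60, but their level differed too. It was 19.7 CPM in air (12 counts) and 46.4 in hyperoxia (18 counts) at pnd7, and 553 and 326 CPM at pnd60. The log2 ratio of pnd60 to pnd7 within the class was 4.81 (4.003 to 5.77) in air and 2.81 (2.14 to 3.58) in hyperoxia, beside class medians of 0.48 and 0.67 over all genes. T cell-like cells had 2.79 and 2.90 and monocyte-like cells 2.13 and 0.49. General capillary-like cells differed less, with -0.15 (-0.54 to 0.25) in air and 0.75 (0.39 to 1.12) in hyperoxia. The T cell-like class included cluster 27, with 60 cells in air and 37 in hyperoxia at pnd7, against 14 and 15 at pnd60. Cell cycle and histone genes led cluster 27, with 0 T cell markers among its 10 leading genes and 7 of 10 raised. In T cell-like cluster 7, Cxcr4 in air and hyperoxia was at 0 and 4.98 CPM at pnd7 (0 counts and 1) and 147 and 93.9 at pnd60.

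Most B cell-like cells at pnd7 were in cluster 23 (84 of 120 in air and 53 of 71 in hyperoxia), whereas at pnd60 most were in clusters 1, 3 and 4. Within cluster 23, Cxcr4 was at 14.04 CPM in air at pnd7 (7 counts) and 175 at pnd60 (23 counts). In hyperoxia it was at 50.7 (17 counts, 29.6 to 81.3) and 95.6 (8 counts, 41.3 to 188), with intervals that overlapped. Within cluster 4 it was at 38.4 and 441 CPM in air and at 20.5 and 256 in hyperoxia. The pnd7 values of cluster 4 rested on 4 counts in air and 1 in hyperoxia. With the mix of classes held equal, the whole-library ratio of pnd60 to pnd7 in air was 2.64, close to the unweighted 2.62. Immediate early genes, which report handling and activation, were also higher in B cell-like cells at pnd60, by a log2 ratio of 1.10 in air and 0.87 in hyperoxia for 10 genes summed. Their part in the result was not tested, nor was that of the lower count per cell at pnd60.

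At pnd60, Cxcr4 was lower in hyperoxia than in air in most leukocyte classes. Of 14 classes or unnamed clusters with at least 20 cells in both libraries and 20 counts over both, 8 were lower beyond counting error and 1 higher, where over all pairs of a gene and a class 4.71% were lower and 4.68% higher. B cell-like cells were at 553 CPM in air (1206 counts in 1251 cells) and 326 in hyperoxia (748 counts in 1261 cells), a log2 ratio of -0.76 (-0.90 to -0.63). Monocyte-like cells were at 347 and 150 CPM, with -1.21 (-1.50 to -0.93), and dendritic cell-like cells at 114 and 22.9 CPM, with -2.32 (-3.10 to -1.61). Interstitial macrophage-like cells were at 231 and 79.0 CPM on 54 and 18 counts, with -1.55 (-2.40 to -0.75). T cell-like cells had -0.47, NK cell-like cells -0.54 and alveolar macrophage-like cells -0.28, the latter pair with intervals that ended just below 0.

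**Figure D5:**
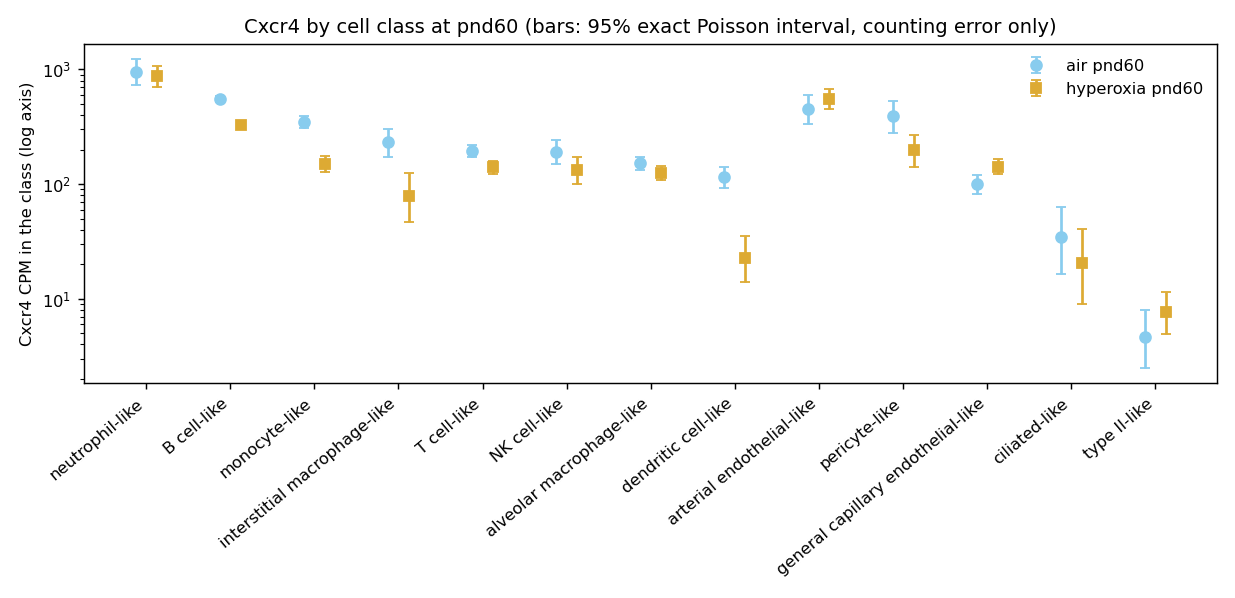
Cxcr4 in 13 cell classes of air and hyperoxia lungs at pnd60, in CPM on a log axis, with bars for the 95% counting interval. B cell-like, monocyte-like, dendritic cell-like and interstitial macrophage-like cells are lower in hyperoxia, and general capillary-like cells are higher (99.9 and 142 CPM).

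The lower Cxcr4 at pnd60 was seen in each of the 4 B cell-like clusters with at least 20 cells in both libraries. Cluster 1 was at 619 CPM in air and 359 in hyperoxia, cluster 3 at 624 and 353, cluster 4 at 441 and 256, and cluster 23 at 175 and 95.6. Cluster 23 rested on 23 and 8 counts, and its intervals overlapped (111 to 263 and 41.3 to 188). Lower Cxcr4 was likewise seen in monocyte-like clusters 11 (503 and 220 CPM) and 14 (198 and 78.9 CPM). Dendritic cell-like clusters 32 (18 and 2 counts), 33 (54 and 12 counts) and 48 (17 and 4 counts) were lower too. After thinning, 40.6% of B cell-like cells in air and 27.3% in hyperoxia had a Cxcr4 UMI, and 55.9% and 39.1% before thinning. Ciliated-like cells, which are not known to express Cxcr4, had 0 of 34 and 0 of 32 thinned cells with a UMI, which allows shares of up to 8.82% and 9.38%, and 11.8% and 21.9% unthinned. Their median counts per cell were 6921 and 10550, against 1595 and 1686 in B cell-like cells. Immediate early genes summed differed by 0.14 in B cell-like, 0.34 in T cell-like, -0.17 in monocyte-like, 0.04 in dendritic cell-like, 0.00 in interstitial macrophage-like and -0.05 in alveolar macrophage-like cells on the log2 scale. Their part in the Cxcr4 values was not tested. With the mix of classes held equal, the whole-library log2 ratio was -0.60.

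Neutrophil-like cells, for which Cxcr4 is known as the receptor that retains them in the bone marrow, had the highest level of the classes with at least 5 cells at pnd60, at 956 CPM in air (31 cells) and 870 in hyperoxia (60 cells). Their log2 ratio was -0.13 (-0.61 to 0.35). Arterial-like cells had 451 and 556 CPM, with 0.30 (-0.21 to 0.84). Without integration, general capillary-like cells were the class with more Cxcr4 in hyperoxia beyond counting error, at 0.51 (0.15 to 0.87) on 104 and 172 counts. After integration, general capillary-like cells were at 59.0 (44.3 to 77.0) and 80.2 (64.4 to 98.8) CPM, with intervals that overlapped. Arterial-like cells, 105 and 96 of 150 in each library formerly general capillary-like, were then at 361 (297 to 435) and 515 (444 to 594) CPM. Pericyte-like cells had 89.8 and 138 CPM in air and hyperoxia at pnd7, a log2 ratio of 0.62 (0.16 to 1.11), and 390 and 199 CPM at pnd60, with -0.97 (-1.63 to -0.31). The pnd7 ratio was -0.45 with thinned cells, and the difference between the ages was not tested. At pnd7 the hyperoxia pericyte-like cells were split between cluster 24 (48 cells, 157 CPM) and cluster 46 (48 cells, 42.3 CPM), and the air cells were all in cluster 24.

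In the sorted library Cxcr4 was at 191.6 CPM against 35.9 in unsorted hyperoxia cells, a log2 ratio of 2.42 (2.27 to 2.57), and 1 of 4 genes compared was 2-fold higher and 2 were 2-fold lower, against 8.17% and 36.4% of 11340 genes. The median over all genes was -0.55. The class mix differed, but a difference remained within alveolar macrophage-like cells, at 167 CPM (1103 counts in 410 cells) and 80.1 CPM (71 counts in 63 cells). This was a log2 ratio of 1.06 (0.72 to 1.43), beside a class median of -0.35. The sorted cells lay in clusters 9 (362 cells) and 39 (47 cells) and most unsorted ones in cluster 22 (45 cells), so different clusters held the class. Their median counts per cell were 15717 and 13731, and cells with a Cxcr4 UMI made up 14.4% and 3.17% after thinning and 75.6% and 44.4% before. The log2 ratio of summed counts was 2.53 after thinning, on 77 counts over both libraries. Very few of these were on the unsorted side, where 3.17% of 63 cells had a UMI, so this value is imprecise. Immediate early genes summed were lower in the sorted cells of this class (1590 and 3191 CPM). Clusters 9 and 39 each had 0 alveolar macrophage markers among their 10 leading genes, with 7 and 10 of 10 raised. Interstitial macrophage-like cells of the sort were at 480 CPM (376 counts in 50 cells), and those of unsorted hyperoxia at 33.4 CPM (8 counts in 19 cells, too few for a ratio under the rule used). Different clusters held this class too. Cluster 45 held 49 of the sorted cells and 0 of unsorted hyperoxia, whose 19 cells were in cluster 25.

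The 2 genes that were lower in the sorted library were Cxcl12, with 16 counts and a log2 ratio of -6.00 (-6.81 to -5.29), and Ackr3, with 20 counts and -4.002 (-4.72 to -3.36). In unsorted hyperoxia at pnd7, general capillary-like cells held 750 of 1760 Cxcl12 counts and 385 of 552 Ackr3 counts. The sorted library held 0 cells of general capillary-like clusters 0 and 16 and 1 cell of arterial-like cluster 30. The part of this class mix in the 2 ratios was not tested. Alveolar macrophage-like cells held 0 Cxcl12 counts in both libraries, which allows up to 0.456 CPM in the sorted and 3.38 in the unsorted one. Cxcl14 had 53 counts and a log2 ratio of 0.07 (-0.45 to 0.58). Cxcl13, Cxcr5 and Cxcr6 had 0 counts in the sorted library and were under 100 counts over both, and with the sorted library set at the floor of 3 counts their log2 ratios were -3.70, -2.49 and -3.84, with upper limits from counting error of -3.36, -2.10 and -3.51.

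Cxcl13 (chr5:95956939-95961068) was held mostly by pericyte-like cells at pnd7 and by interstitial macrophage-like cells at pnd60. Over whole libraries it was at 4.99 CPM in air and 4.94 in hyperoxia at pnd7, listed at 0 counts in the sorted library, and at 1.42 and 8.41 CPM at pnd60. At pnd7, pericyte-like cells held 53 of 83 counts in air and 38 of 67 in hyperoxia, at 85.0 and 43.8 CPM, a log2 ratio of -0.95 (-1.60 to -0.33). These counts lay in 12 and 10 cells, with 62.3% and 78.9% of them in 3 cells, so this interval is too narrow. The hyperoxia class also held cluster 46 (48 cells, 3 counts). Cluster 24 alone was at 85.0 CPM in air and 48.3 in hyperoxia. At pnd60, interstitial macrophage-like cells held 15 of 21 counts in air and 129 of 139 in hyperoxia, at 64.1 and 566 CPM, a log2 ratio of 3.14 (2.37 to 4.02). Pericyte-like cells still held 5 of 21 counts in air at pnd60, at 46.4 CPM (15.1 to 108), which did not differ beyond counting error from the pnd7 level, and 1 of 139 in hyperoxia, at 4.97 CPM. The macrophages of this class had 0 Cxcl13 counts in either pnd7 library (19 cells each) and in the sorted library (50 cells), which allows up to 15.1, 12.5 and 3.83 CPM in air, hyperoxia and the sort.

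The pnd60 difference came from a handful of cells. In air 3 of 65 cells had Cxcl13, with 8, 5 and 2 counts. In hyperoxia 6 of 56 cells had it, with 75, 33 and 15 counts in the highest 3 and 2 in each of the others. The intervals treat counts as independent and so are too narrow where 1 cell holds 58.1% of them. Thinned cells with a UMI were 3.08% (2 of 65) in air and 7.14% (4 of 56) in hyperoxia, with median counts per cell of 3378 and 4099.5, and the intervals of these shares, 0.375% to 10.7% and 1.98% to 17.3%, overlapped. Without the highest cell of each library the class ratio was 3.03 (1.89 to 4.41), while the whole-library ratio was 2.13 (1.59 with thinned cells) and the gene fell under the 100 counts needed for a call.

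Cxcr5 (chr9:44511787-44526444), the receptor of Cxcl13, was found mainly in B cell-like cells, which held 78.9%, 93.1%, 87.3% and 91.0% of its counts in the 4 unsorted libraries in the order air and hyperoxia at pnd7, then air and hyperoxia at pnd60. Its level in these cells was 91.9, 69.6, 104 and 92.5 CPM. None of the 4 comparisons of these libraries by age or by oxygen differed beyond counting error within the class, with hyperoxia to air log2 ratios of -0.40 (-1.12 to 0.29) at pnd7 and -0.17 (-0.45 to 0.10) at pnd60. The whole-library difference between the ages, 2.05 in air and 2.72 in hyperoxia, shrank to 0.18 and 0.48 with the mix of classes held equal. Within B cell-like cells in air, the log2 ratio of pnd60 to pnd7 was thus 0.18 (-0.25 to 0.63) for Cxcr5 and 4.81 for Cxcr4. Of thinned B cell-like cells, 9.17%, 9.86%, 9.46% and 8.84% had a Cxcr5 UMI (34.2%, 32.4%, 15.7% and 15.2% unthinned, at median counts per cell of 3787, 4210, 1595 and 1686), and ciliated-like cells had 0 counts in each library that held them.

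Cxcl14 (chr13:56288643-56296811) stood out by age. Over whole libraries it was at 10.6 CPM in air and 6.41 in hyperoxia at pnd7, at 6.73 in the sorted library, and at 106.3 and 86.1 CPM at pnd60, log2 ratios of 3.33 in air and 3.75 in hyperoxia. With the mix of classes held equal the ratios were 3.43 and 4.50. Alveolar fibroblast-like cells, the lipid-bearing fibroblasts of the alveolar wall, held 53.4% and 57.5% of the counts at pnd7 and 69.6% and 76.2% at pnd60. Their level was 63.2 and 30.6 CPM at pnd7 and 995 and 944 CPM at pnd60. Different clusters held this class at the 2 ages, clusters 18 and 43 at pnd7 and cluster 5 at pnd60.

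Cxcl14 in alveolar fibroblast-like cells was lower in hyperoxia at pnd7, with a log2 ratio of -1.04 (-1.57 to -0.53) on 94 and 50 counts, and differed by -0.08 (-0.20 to 0.05) at pnd60. In adventitial fibroblast-like cells, which sheathe airways and vessels, it was 1069 CPM in air (243 counts in 41 cells) and 387 in hyperoxia (101 counts in 42 cells) at pnd60, a log2 ratio of -1.47 (-1.82 to -1.13). This was -0.87 after integration and -0.61 at a finer resolution of clustering. Pericyte-like cells were at 464 and 248 CPM, with -0.90 (-1.50 to -0.31). After thinning, 51.6% and 55.4% of alveolar fibroblast-like cells at pnd60 had a Cxcl14 UMI, against 1.84% and 1.20% of B cell-like cells, and 84.4% and 83.8% against 2.88% and 2.22% without thinning. Median counts per cell were 3703 and 3582 in alveolar fibroblast-like cells.

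Cxcr6 (chr9:123806477-123811754) was found mainly in T cell-like cells and in a small unnamed cluster. Over whole libraries it was at 3.96 CPM in air and 5.45 in hyperoxia at pnd7, and at 10.6 and 15.1 CPM at pnd60. T cell-like cells held 33 of 66 counts in air and 26 of 74 in hyperoxia at pnd7, and 61 of 157 and 92 of 249 at pnd60, at 25.02, 24.3, 41.9 and 55.9 CPM. Of the T cell-like counts at pnd7, 7 in air and 12 in hyperoxia lay in cluster 27, which cell cycle genes led. A small cluster, 26, held more per cell, at 418, 692, 692 and 804 CPM in 7, 8, 52 and 65 cells, and 40.9% to 58.1% of the counts. It was left unnamed, since its leading genes included Cd163l1 and the T cell receptor gene Trdc_1 beside Il1rl1 and Gata3 of innate lymphoid cells and mast cell genes. NK cell-like cells held 0 counts in 174 and 181 cells at pnd60, which allows up to 8.01 and 7.50 CPM, and ciliated-like cells held 0 counts too. Hyperoxia and air differed over whole libraries by 0.46 (-0.04 to 0.96) at pnd7 and 0.50 (0.21 to 0.80) at pnd60. At pnd60, neither the pooled T cell-like class (0.42, -0.07 to 0.91) nor cluster 26 (0.22, -0.18 to 0.62) differed beyond counting error. T cell-like cluster 19 was at 118 CPM in air (31 counts, 80.4 to 168) and 277 in hyperoxia (66 counts, 214 to 353). Its intervals did not overlap. T cell-like clusters 8 (47.3 and 36.2 CPM) and 7 (2 counts and 0) were lower in hyperoxia, with intervals that overlapped.

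Cxcl16 (chr11:70454389-70459984) had 0 counts in all deposited barcodes of the 5 libraries, and its expression cannot be read from these tables. The feature list holds a second feature, Cxcl16_1, with 2 counts in all. It lies in an unbroken run of 80 features that each have such a second copy, of which 29 had 0 counts in the filtered cells. Other genes of the run that most cells use were low as well. Psmb6, a proteasome subunit, had 364 counts where its partners Psmb5 and Psmb7 had 9690 and 5361, and Arrb2, an arrestin that binds chemokine receptors, had 18. In all, 1740 features had a second copy.

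Between the ages, 4 of 7 genes were 2-fold higher at pnd60 in air and 1 was lower, against 15.1% and 9.35% of 13003 genes, and in hyperoxia 4 were higher and 0 lower, against 19.1% and 9.49% of 12923 genes. The 4 were Cxcr4, Cxcr5, Cxcl14 and Cxcr6 in both cases, and the 1 lower was Cxcl13 in air, at -1.81. Medians were 1.43 and 1.47 over the 7 genes and 0.23 and 0.29 over all genes. Cxcl12 and Ackr3 differed less, at 0.21 and -0.38 in air and at -0.39 and -0.90 in hyperoxia. Cxcl12 in air was at -0.02 relative to the median of all genes. The whole-library sign of Ackr3 in air was not stable, at 0.31 with all barcodes and 0.25 with thinned cells.

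Other genes of the pathway were counted from lists rather than picked, and over all genes compared 0.183% were 2-fold higher and 0.802% lower in hyperoxia at pnd7, and 0.271% and 0.248% at pnd60. All list ratios here and below are over whole libraries. They mix the classes captured with the level in them, and no class values are given for single listed genes. Of 13 signalling and desensitization genes 12 were compared at pnd7, and Rgs1, which switches off G protein signals, was the 1 that was 2-fold higher in hyperoxia, at 1.23 (1.02 to 1.45), while 0 were lower. At pnd60, 0 of 11 were past 2-fold. Of 10 extracellular partners and proteases, 0 of 8 at pnd7 and 0 of 9 at pnd60 were past 2-fold. Cd74, a receptor chain for the cytokine Mif and the gene of this list with the most counts, was at 0.01 at pnd7. The 4 genes of the hypoxia-inducible factor list were under 2-fold in both comparisons, with medians of 0.05 and -0.02. Of 7 lymphoid tissue signals that go with Cxcl13, 2 and 3 had enough counts and 0 were past 2-fold. All 10 immediate early genes were compared and 0 were past 2-fold at either age, with medians of 0.21 and 0.14.

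In the sorted library, Rgs1 (3.06) was 2-fold higher among 11 signalling genes, and Arrb1, Grk6 and Rgs16 were 2-fold lower. The protease Adam17 (1.60), which sheds Cxcl16, was higher among 8 extracellular genes, and Dpp4 (-4.35), the protease that clips Cxcl12, Ackr2 (-3.89) and Sdc4 (-1.60) were lower. Epas1 (-4.33), the endothelial hypoxia-inducible factor, and its target Vegfa (-2.25) were lower among 4 genes, and so was Ccr7 (-6.25) among the 2 lymphoid signals with enough counts. Of the 10 immediate early genes 1 was higher and 5 were lower, beside 8.17% and 36.4% of all genes. The sorted library was mostly macrophage-like, and the part of its class mix in these ratios was not tested.

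Between the ages, 15.1% of all genes compared in air and 19.1% in hyperoxia were 2-fold higher at pnd60, and 9.35% and 9.49% were lower. In the lists, 2 signalling genes in air, Grk2 (1.14) and Rgs1 (1.25), and 4 in hyperoxia, Grk2 (1.42), Grk6 (1.33), Rgs18 (1.10) and Rgs2 (1.10), were 2-fold higher at pnd60, and Rgs16 was lower in both (-2.28 and -2.12), of 12 compared each. Grk2 and Grk6 are kinases that desensitize Cxcr4. In the extracellular list Cd74 was higher by 2.08 and 2.14, Ackr4 by 3.28 in hyperoxia (it had under 100 counts in air), and Mif (-1.08 and -1.22) and Hmgb1 (-1.31 and -1.47), ligands that can act through Cxcr4, were lower, of 8 and 9 compared. Of 3 lymphoid signals Ccr7 (2.52 and 2.16) and the B cell survival factor Tnfsf13b (2.95 and 3.87) were higher. Epas1 was higher by 1.69 and 1.58 among the 4 hypoxia-inducible factor genes, and of the 10 immediate early genes 2 were higher in air and 3 in hyperoxia, with 0 lower. B cell-like cells were a larger share of cells at pnd60, and the part of the class mix in these ratios was not tested.

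Cells with a UMI of both Cxcl12 receptors were counted in each library. These counts depend on depth and were not set against the overlap that independent detection of the genes would give. In air and hyperoxia at pnd7, 38 and 28 of 2308 and 1246 cells had both. There were 268 and 215 cells with Cxcr4 and 183 and 153 with Ackr3. At pnd60, 22 and 25 of 4397 and 4756 cells had both, with 1461 and 1170 cells with Cxcr4 and 166 and 175 with Ackr3. In the sorted library 3 of 365 Cxcr4 cells and of 5 Ackr3 cells had both.

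Genes with the most similar pattern were sought over 53 pools, as the Pearson correlation of log2(CPM + 1). Each pool held the cells of 1 class in 1 library, with at least 50 cells. Arterial-like cells reached this only in hyperoxia at pnd60 (54 cells), and venous-like cells only in air at pnd60 (54 cells). The pools share libraries and depth, so the values are descriptions. Cxcl12 was most like Gja4 (0.90), a gap junction gene that is also on the arterial marker list, Pde3a (0.90) and Hoxa5 (0.87). Cxcr4 was most like Sft2d1 (0.80), Fam13b (0.78) and Grk2 (0.74). Ackr3 was most like Samd5 (0.87), Gm10400 (0.81) and the junction gene Jam2 (0.81). Cxcr5 followed the B cell genes Pou2af1 (0.83) and Ms4a1 (0.80), Cxcl14 followed Gpx3, Hivep3 and Lrat (0.83 to 0.82), and Cxcr6 followed Trac_1 (0.79) and Il7r (0.77). Cxcl13 and Cxcl16 had too few counts.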

How the data were processed

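Single lung cells were captured with 10x Genomics chemistry, 1 library per condition. The authors deposited raw UMI counts per gene and barcode for 5 libraries, made with Cell Ranger on mm10, and the submitters' processing notes also name Seurat 3.2.1. The annotation is not given in the sources used here. The filter on cells followed the study: over 700 and under 8000 genes, with mitochondrial genes taking under 5% of the counts. No doublet caller was used in the main analysis.

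Counts were summed per library or per class and divided by the total to give CPM, with exact Poisson intervals. Log2 ratios have exact conditional binomial intervals, shares Clopper-Pearson intervals, all at 95%, and a count of 0 was set to a floor of 3 counts in a ratio. What 0 counts or 0 cells allow is likewise given as 3 over the total. This lies below the upper end of the exact 95% interval, which for Cxcr6 in NK cell-like cells at pnd60 was 9.85 CPM in air and 9.22 in hyperoxia. Ratios over all genes needed 100 counts over both libraries, and within a class 20 counts over both and 20 cells in each. A call is a 2-fold ratio in CPM. Where the class mix was held equal, only named classes with at least 20 cells in both libraries entered, and cells of other classes were left out. Cells were thinned to 1000 UMIs for shares of cells with a UMI. Intervals treat counts as independent and cover counting error only.

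Cells were clustered with scanpy 1.11.5 (3000 features, 50 principal components, 15 neighbours, Leiden resolution 2, leidenalg 0.10.2), without integration and without the 8 genes or the listed genes. A cluster was named where at least 3 markers of a class were raised and the 10 leading genes did not go against the name. The naming thresholds were set after the clusters were seen. Integration with sctransform 0.4.2 and Seurat 5.3.0 was an alternative, as were Scrublet, resolutions 1 and 3, other filters, other scalings and thinning. Scrublet marked 1 to 156 cells per library, and 1 cell of 2308 is too few to show that it worked there. Python 3.11.15, numpy 2.4.6, scipy 1.17.1, pandas 2.3.3 and R 4.3.3 were used, and the ratios, their intervals and the call rule were checked on simulated counts.

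The 8 genes and all gene lists were chosen with earlier results of these data known, and the immediate early list was added after the class values were seen. All 8 genes are described; of the lists, genes at or past 2-fold or with the most counts are named, and the 3 genes most like each of the 8 are given where it had at least 500 counts, except that 1 gene each for Cxcr5 and Cxcr6 is not reported here. Promoter sequences and positions are from RefSeq on GRCm38.p6, in which 6 of the 8 genes had a promoter entry. No columns of per-sample values were left unused. No model was fitted across genes, since each condition had 1 library.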

Additional observations from a re-analysis of the deposited data

Results flagged for a closer look

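Cxcr4 differed between hyperoxia and air in opposite directions at the 2 ages over whole libraries and in 2 classes. Over whole libraries the log2 ratio of hyperoxia to air was 0.32 at pnd7 and -0.58 at pnd60. In B cell-like cells it was 1.24 at pnd7, on 18 and 12 counts, and -0.76 at pnd60. In pericyte-like cells it was 0.62 at pnd7 and -0.97 at pnd60, and the pnd7 value was -0.45 with cells thinned to 1000 UMIs. General capillary-like cells had the reverse signs, at -0.39 (-0.79 to 0.00) at pnd7 and 0.51 at pnd60. Over the 8 classes compared at pnd7 the median was -0.02, with 2 higher and 0 lower beyond counting error. The difference between the ages was not tested, since each condition had 1 library and nothing measures the spread between mice.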

How the results depend on the processing

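No paired analysis was possible because no condition had a second library. No whole-library ratio that was called changed sign under any alternative. Of the 32 whole-library ratios, the sign was kept in 32 with hemoglobin genes left out of the total, with Scrublet doublets removed and with the highest cell left out, in 30 with the mean per cell and with median-of-ratios scaling, in 29 with all barcodes, in 28 with thinned cells, and in 27 of 30 with the class mix held equal. Of 56 ratios within a class, 53 kept it with integration, 54 with cells classed by their own markers and 52 at resolution 3. With the highest cell left out 54 of 56 kept it, and with thinned cells 41 of 50. Among whole-library ratios that were not called, the largest change of sign was for Cxcl13 from pnd7 to pnd60 in hyperoxia. It was 0.77 as captured and -1.65 with the class mix held equal. Cxcl12 in the same comparison went from -0.39 to 0.33 with all barcodes. The equal mix there covered 11 named classes. Interstitial macrophage-like cells, with 19 cells in hyperoxia at pnd7, were left out of it. They held 129 of the 139 Cxcl13 counts in hyperoxia at pnd60, so -1.65 leaves out most of the gene's counts.

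The count of genes 2-fold higher in hyperoxia at pnd7 was 1 rather than 0 with the mean of per-cell CPM, and the count 2-fold lower was 1 rather than 0 with all barcodes, without hemoglobin genes in the total and with the class mix held equal. At pnd60, 0 rather than 1 were higher with thinned cells and with the highest cell left out, which removes the Cxcl13 call. In the sorted library, 1 was lower with thinned cells, 0 with the class mix held equal, and 5 with a minimum of 20 counts or none. The equal mix there covered 1 class, alveolar macrophage-like cells. From pnd7 to pnd60 in air, 2 rather than 4 were higher with the class mix held equal, and 0 rather than 1 lower with thinned cells or without the highest cell. In hyperoxia, 1 rather than 0 was lower with median-of-ratios scaling and with the class mix held equal. The causes were not tested. With 1 library per condition, every statement is limited to these libraries.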
